A study of Mus musculus with 2 samples.

Results

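The genes described here are the clustered histone genes of the mouse, taken as every gene whose symbol begins with Hist1h, Hist2h, Hist3h or Hist4h. They number 67 of the 32285 genes in the deposited count tables, with 6 genes for linker histone H1, 18 for H2a, 18 for H2b, 12 for H3 and 13 for H4. In the GENCODE M21 annotation of mm10, 54 of them lie on chromosome 13, 10 on chromosome 3, 2 on chromosome 11 and 1 on chromosome 6. Single epithelial cells of the tongue were sequenced from male mice of the strain labelled B57BL/6, aged 8 to 12 weeks, at Zeitgeber time 0 (ZT0) and Zeitgeber time 12 (ZT12). The minced epithelium was digested with TrypLE, cells that excluded the dye 7-AAD were sorted on a SH800S, and 10x Genomics 3′ libraries were made from polyadenylated RNA. Each time is 1 library, and the labels say neither how many mice it pools nor name a treatment or genotype for either group. After filtering, 1595 cells with 49358461 UMIs (unique molecular identifiers, 1 for each captured transcript) were kept at ZT0 and 2621 cells with 67075209 UMIs at ZT12.

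Histones package DNA: H2a, H2b, H3 and H4 form the core around which DNA winds, and H1 binds the DNA between cores. Most clustered histone genes have no introns and are switched on while DNA is copied, when NPAT and cyclin E with CDK2 drive their transcription. Their messenger RNAs as a rule end in a short stem-loop bound by SLBP and carry no poly(A) tail, and they are destroyed when DNA synthesis stops. Some clustered genes also give polyadenylated messenger RNAs, chiefly in cells that have left the cycle. Capture on poly(A), as used here, therefore counts the captured molecules of each gene and not its whole messenger RNA, and levels of different members are not compared as abundances.

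The transcript ends are shown first, since they bear on what such a library can catch. Where the captured reads start was not examined. A script found the histone stem-loop in the annotated models of 46 of the 67 members. In each line below the 16 bases in capitals are the stem-loop and the 14 in lower case are the bases before it, all in the 3′ untranslated part of a single-exon gene (mm10, GENCODE M21 transcripts).
Hist1h2ap, chr13:21833029-21833058, minus strand: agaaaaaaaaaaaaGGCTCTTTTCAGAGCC
Hist1h2ao, chr13:21810884-21810913, plus strand: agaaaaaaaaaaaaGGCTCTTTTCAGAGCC
Hist1h2ae, chr13:23570668-23570697, minus strand: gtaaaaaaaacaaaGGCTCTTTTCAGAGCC
Hist1h3c, chr13:23745047-23745076, minus strand: gctatttaaaaaaaGGCTCTTTTAAGAGCC
Hist1h4d, chr13:23581936-23581965, plus strand: acccaaaaaccaaaGGCCCTTTTCAGGGCC
Hist1h1e, chr13:23621782-23621811, minus strand: cccaacaacccaaaGGCTCTTTTCAGAGCC
Hist1h1c, chr13:23739498-23739527, plus strand: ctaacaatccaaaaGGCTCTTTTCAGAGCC
Hist3h2a, chr11:58955158-58955187, plus strand: ttacagacaccaaaGGCTCTTTTCAGAGCC
The stem-loop is nearly the same in all 8, and the stretch before it is not. The longest run of A in the 30 bases is 12 in Hist1h2ap, 8 in Hist1h2ae, 7 in Hist1h3c, 5 in Hist1h4d, 4 in Hist1h1c and 3 in Hist1h1e and Hist3h2a. Hist1h2ap and Hist1h2ao share all 30 bases, yet 6393 UMIs were assigned to the former and 13 to the latter. Their annotated models end 3 and 31 bases after the stem-loop, and whether reads of one were assigned to the other was not tested.

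Where the annotated transcript goes on past the stem-loop, a polyadenylated end beyond it can be captured. Of the 46 members with a stem-loop, 23 had models that ran on for 100 bases or more, with a median of 205 UMIs per gene over both libraries, and 23 had shorter ones, with a median of 28. Whether reads past the end of a short model were counted was not tested, and the annotation used for counting is not named. The longer group holds Hist1h1c, the leading H1 gene, Hist1h1e, whose model runs on for 1153 bases, and Hist3h2a, with 1643. The shorter group holds Hist1h2ap, so a short model did not mean a low count. The models of Hist1h1b and Hist1h1a, both linker histone genes, stop at or near the end of the coding sequence and show no stem-loop for that reason. Hist1h2bc, the leading H2b gene, has a model of 2 exons at 23684199 to 23692908 on chromosome 13, plus strand, and no stem-loop in it. A further 11 members are annotated by coding sequence alone and took 1.06% of the member UMIs. Another 15 members match a second member at 95% identity or more over their last 300 bases, some of them coding-only genes as well. They are given as uncertain, since reads that fit both genes are lost or split, and they hold 2.27% of the member UMIs. This share is a lower limit, since only annotated ends were compared and copies whose models end at different points can be missed. Hist1h2ap and Hist1h2ao, Hist1h4m and Hist1h4n, and Hist2h3c1 and Hist2h3c2 each share the 30 bases of the stem-loop window and are not among the 15. The same holds for Hist1h2bf and Hist1h2bg, and for Hist1h2bm and Hist1h2bp. Hist1h2ap alone held 12.3% of the member UMIs. The exons of Hist1h2be and Hist1h1e overlap by 496 bases on the same strand, so these 2 cannot be fully told apart.

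Reads for the members were very unevenly spread over the genes. The 67 members had 32342 UMIs at ZT0 and 19789 at ZT12. Hist1h2bc alone held 32.3% of them and 91.2% of all H2b UMIs. The 6 leading genes, Hist1h2bc, Hist1h2ap, Hist1h1c, Hist3h2a, Hist1h1b and Hist1h1e, held 79.2%. The 25 named members are those with the most UMIs, and the other 42 had between 0 and 168 UMIs each and 3.68% in all. No UMI was seen for Hist1h2aa, Hist1h2ba or Hist1h4m, and 1 each for Hist1h2bq and Hist2h2aa2. Hist1h2bq and Hist2h2aa2 have close copies, and Hist1h4m shares its stem-loop window with Hist1h4n. Whether reads of these genes were lost or assigned elsewhere was not tested. A count of 0 allows up to 0.0608 CPM (UMIs of a gene per 1000000 UMIs of its group of cells) over all ZT0 cells and 0.0447 over all ZT12 cells, with 3 counts as the limit. H3 genes as a class had only 2.83% of the member UMIs, led by Hist2h3c1 with 20.3% of the H3 total, and H4 genes 4.95%, led by Hist1h4d with 43.2%.

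Cells were placed in states by gene lists that hold no histone, histone variant, chaperone or histone mRNA factor. Each cell was first reduced at random to 10000 UMIs, which left out 107 ZT0 and 165 ZT12 cells of lower depth. Cells with at least 80 UMIs over 52 G2/M genes are called G2/M-list cells, 176 at ZT0 and 29 at ZT12. Cells below that with at least 15 UMIs over 39 replication genes are called S-list cells, 86 at ZT0 and 319 at ZT12. Resting cells are under both limits and are called basal-like (370 and 460 cells) or differentiated-like (449 and 793) from the markers of their cluster. Of the G2/M-list cells, 138 at ZT0 and 20 at ZT12 also passed the S-list limit and are called dual cells, a division made after the values were seen. The other 38 and 9 are called G2/M-only cells.

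The states carried the markers their names call for. Ccnb1, a mitotic cyclin, stood at 568 CPM at ZT0 and 439 at ZT12 in G2/M-only cells, at 287 and 183 in dual cells, and at 13.5 and 6.94 in S-list cells. Pcna, the clamp of DNA polymerase, stood at 318 and 474 CPM in dual cells, at 229 and 249 in S-list cells and at 43.5 and 39.9 in G2/M-only cells. Mcm2, another replication gene, was lower in dual cells, at 48.3 and 103 CPM, than in S-list cells, at 74.1 and 125. Ccne2, a cyclin E gene, was lower in dual than S-list cells at ZT0 (32.1 against 46.7 CPM) and higher at ZT12 (114 against 26.4). Dual cells by definition held transcripts of both lists, so G2/M-list cells are not called mitotic here. The 10 basal markers summed to 16404 CPM at ZT0 and 21769 at ZT12 in G2/M-list cells, against 4713 and 4980 in differentiated-like cells. Basal markers also served in naming the clusters, so the low value of differentiated-like cells is partly set by that. Immune and simple epithelial clusters held 5 S-list or G2/M-list cells at ZT0 and 3 at ZT12. The 9 lymphocyte markers summed to 41.3 CPM in ZT0 S-list cells and to 0 to 5.56 elsewhere. The 9 myeloid and Langerhans markers summed to 427 CPM in ZT0 G2/M-list cells, 285 of them from Epcam, which epithelial cells also make, and the antigen presentation gene Cd74 stood at 259 CPM in the 38 G2/M-only cells of ZT0 against 2.05 in dual cells. The part of such cells in the G2/M-only values was not tested beyond the exclusion below. Of 6 fibroblast markers only Dcn passed 5 CPM, with the others at or near 0. Leaving out the immune-like and simple epithelial-like clusters moved no recomputed ratio of the members beyond its counting error and no count of calls by over 1.5 times. Median depth was 39502.5 UMIs at ZT0 and 25589 at ZT12 in G2/M-list cells, 28100.5 and 21892 in S-list cells, 22299 and 17419 in basal-like cells, and 38870 and 33752 in differentiated-like cells. The unnamed clusters held 16.6% and 25.1% of all cells, and 2 cell barcodes were shared by the libraries.

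**Figure D1:**
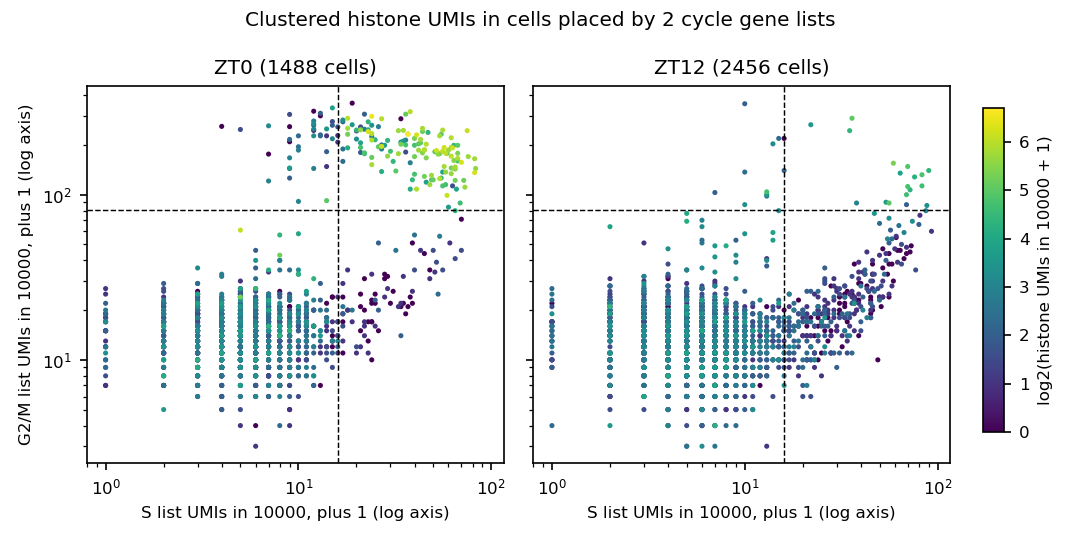
Each point is 1 cell of the ZT0 (1488 cells) or ZT12 (2456 cells) library, reduced to 10000 UMIs, with its S-list UMIs plus 1 on the horizontal log axis, its G2/M-list UMIs plus 1 on the vertical log axis and the colour giving log2 of its clustered histone UMIs plus 1. Dashed lines mark the limits of 15 and 80 UMIs, and cells past both limits mostly have high histone counts, while some cells under both limits have them too.

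Per cell, the dual cells had the highest counts of clustered histone transcripts. At ZT0 the dual cells had a median of 34.5 member UMIs per 10000, against 3.5 in G2/M-only cells, 1 in S-list cells, 3 in basal-like cells and 2 in differentiated-like cells. At ZT12 the same medians were 19.5, 5, 2, 4 and 2. At least 10 member UMIs were found in 83.3% of dual cells at ZT0 (exact Clopper-Pearson 95% interval 76.0 to 89.1) and in 75% at ZT12 (50.9 to 91.3). Among S-list cells 1.16% at ZT0 (0.0294 to 6.31) and 0.940% at ZT12 (0.194 to 2.72) reached 10, and among resting basal-like cells 7.03% (4.64 to 10.13) and 7.83% (5.54 to 10.7). The intervals of the dual cells overlap neither of these, and they cover counting error only, as do all intervals given here. Of all member UMIs the dual cells held 57.8% at ZT0 and 5.64% at ZT12, and the more numerous basal-like and differentiated-like cells held 10.14% and 15.3% at ZT0 and 17.5% and 34.0% at ZT12. Since each time is a single library, no p-value is given anywhere, and differences between the times have no replicates behind them.

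Both lists show where along them the counts were high. In ZT0 cells with at least 30 S-list UMIs, the median was 1 member UMI where the G2/M list held 20 to 39 UMIs (17 cells) and 2 where it held 40 to 79 (12 cells). It was 24.5 at 80 to 119 (12 cells), 38 at 120 to 159 (25 cells) and 45 at 160 to 239 (45 cells). At ZT12 the medians over the first 4 of these ranges were 1 (80 cells), 1 (30 cells), 19 (9 cells) and 23.5 (6 cells). Cells with many S-list UMIs thus had few captured histone molecules where the G2/M list was low and more where it was high, in both libraries. Whether the cells of each range were copying DNA was not measured. These groups are small, and cells of a group come from 1 library and are not replicates.

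Class by class, H2a stood out most in G2/M-list cells at ZT0 and H2b did not stand out at all. At ZT0 the H2a sum was 24.5 times that of resting basal-like cells (22.3 to 27.0), the H3 sum 14.9 times (11.4 to 19.8), the H1 sum 11.7 times (10.8 to 12.7) and the H4 sum 9.24 times (7.80 to 11). The H2b sum was 0.802 of the basal-like level (0.747 to 0.862), with 184 CPM against 229. At ZT12 the ratios were 11 for H2a, 7.40 for H3, 6.24 for H1, 4.21 for H4 and 0.601 for H2b (0.484 to 0.739). The order of the ratios was the same in both libraries, but at ZT0 the intervals of H3, H1 and H4 overlap from each to the next. At ZT12 the interval of H3 (4.55 to 11.9) overlaps those of H2a (9.75 to 12.4), H1 (5.60 to 6.95) and H4 (3.05 to 5.74), and those of H1 and H4 overlap too. H2a above H3 at ZT0 and H2b below all others in both libraries are the neighbours whose intervals do not overlap. Over all members the ratio was 7.08 at ZT0 (6.82 to 7.34) and 4.03 at ZT12 (3.77 to 4.30), which is 2.82 and 2.01 on the log2 scale. In G2/M-only cells alone it came to 0.30 and 0.78 on that scale, and a G2/M limit of 40 in place of 80 gave 1.18 at ZT12.

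**Figure D2:**
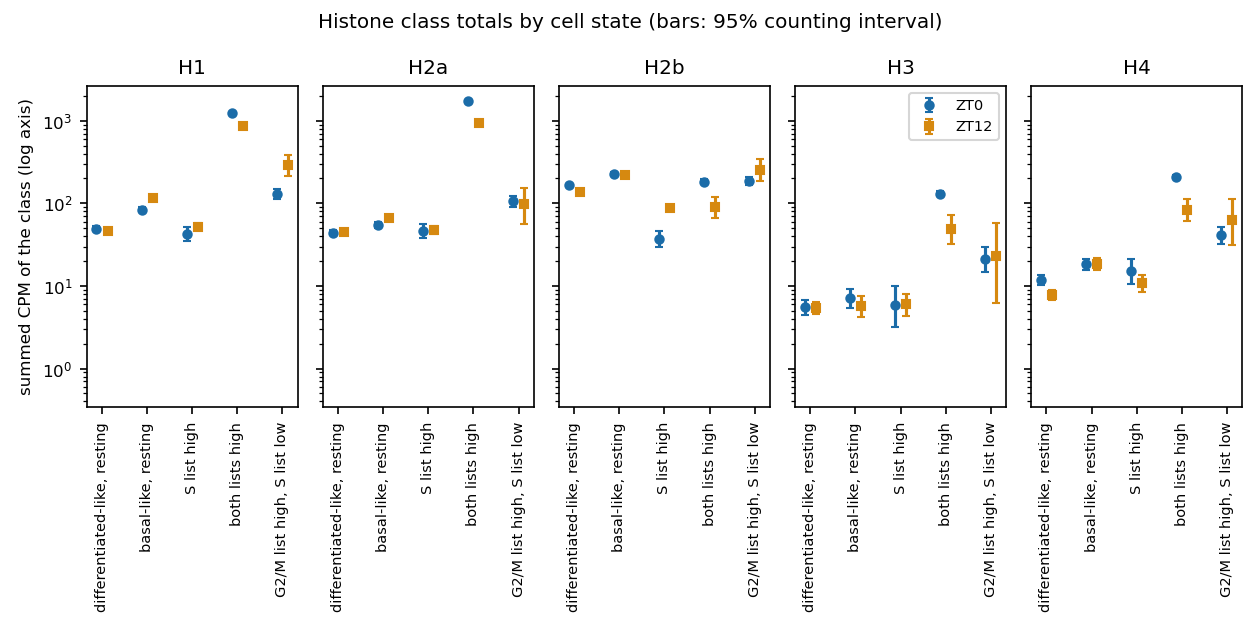
Summed CPM of the members of each histone class (H1, H2a, H2b, H3, H4) by cell state in the ZT0 and ZT12 libraries, with exact Poisson 95% intervals as bars. The H2b sum is 229 and 218 CPM in resting basal-like cells and lower in S-list cells, while the sums of the other 4 classes are highest in cells high for both lists.

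A gene was called higher or lower when its mean CPM over the compared groups was at least 5, its ratio at least 2 in size and its 95% interval clear of 1. A gene near 0 in 1 group can pass the CPM limit through the other group alone, and can then be called in that direction only. Several members did so, such as Hist1h3c with 26.7 against 0.120 CPM at ZT0. Shares and medians of tested members are raised in size by this. Against resting basal-like cells, 24 members passed the CPM limit in G2/M-list cells at ZT0, and 21 of them were higher, where 8.77% of all 9773 genes tested were. A single member, Hist1h2bc, was lower, against 5.0% of all genes. The median log2 ratio of the 24 was 4.63, against -0.06 over all genes. At ZT12, with fewer cells, 15 members passed, 12 were higher (9.37% of all genes) and 2 lower (4.76%), with a median of 3.87 against -0.02. Of the members called higher, 11 were called in both libraries, which is 11 of the 21 at ZT0 and 11 of the 12 at ZT12, and Hist1h3d was called at ZT12 alone. Without the limit on CPM, 58 of the 67 members had more CPM in G2/M-list than in basal-like cells at ZT0, 4 had fewer and 5 had no UMI in either. Neither this count nor the overlap between libraries was made over all genes, so neither is read as particular to the members.

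Among the linker histones 4 of 6 were called higher in both libraries. Hist1h1b, at 21779883 to 21780625 on chromosome 13, had 552 CPM in G2/M-list cells and 2.99 in resting basal-like cells at ZT0, and 358 and 2.21 at ZT12. The ratio was 184 (125 to 285) at ZT0 and 162 (101 to 278) at ZT12. Within the G2/M-list cells it lay in the dual cells, with 713 CPM at ZT0 and 466 at ZT12, against 29.6 and 17.1 in G2/M-only cells. Hist1h1e had 254 against 20.6 CPM at ZT0, a ratio of 12.3 (10.5 to 14.5), and 193 against 22.4 at ZT12, a ratio of 8.59 (6.84 to 10.8). Its resting level was the highest of these 4 genes, and its ratio the smallest. Hist1h1d had 47.2 against 2.28 CPM at ZT0 and 35.8 against 2.45 at ZT12, and Hist1h1a had 32.6 against 0.479 and 31.7 against 0.245. Hist1h1c was different, with 98.8 against 57.5 CPM at ZT0 and 103 against 88.4 at ZT12, ratios of 1.72 (1.53 to 1.93) and 1.17 (0.908 to 1.48) that were not called. The sixth linker gene, Hist1h1t, which is known for its use in the testis, had 8 UMIs in all.

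Most of the named H2a genes were called higher in G2/M-list cells at ZT0. Hist1h2ap, with the most UMIs of the class, had 811 CPM in G2/M-list cells and 2.63 in resting basal-like cells at ZT0, and 544 and 2.21 at ZT12. The ratio was 308 (203 to 491) at ZT0 and 246 (154 to 420) at ZT12. Of its ZT0 UMIs 97.7% came from G2/M-list cells, which made up 11% of the cells. Hist1h2ae had 293 against 2.63 CPM at ZT0, a ratio of 111 (73.2 to 178), and 97.7 against 1.59 at ZT12, a ratio of 61.3 (33.7 to 121). Hist1h2ab had 56.0 against 0.239 CPM at ZT0 and 13.8 against no UMI at ZT12, at least 37.4-fold higher by a limit of 3 counts over the basal-like cells. Hist2h2ac had 66.6 against 3.47 CPM and 26.2 against 1.59. Hist1h2af, with close copies, had 25.8 against 0.120 CPM at ZT0 and 4 UMIs in G2/M-list cells at ZT12. Hist2h2aa1, which has an identical copy over its last 300 bases, and Hist1h2ac had 12.7 and 11.8 CPM in ZT0 G2/M-list cells and 2.16 and 2.39 in basal-like cells.

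Hist3h2a, an H2a gene on chromosome 11 outside the large clusters, went against its class. It had 28.5 CPM in G2/M-list cells against 39.99 in resting basal-like cells at ZT0, a ratio of 0.713 (0.595 to 0.852), and 24.8 against 56.7 at ZT12, where it was 2.29 times lower (1.43 to 3.89) and was called. Over the 4 pooled resting groups it ranged from 36.9 to 56.7 CPM.

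For H2b the outcome turned on a single gene. Hist1h2bc had 75.8 CPM in G2/M-list cells against 221 in resting basal-like cells at ZT0, 2.92 times lower (2.65 to 3.22). At ZT12 it had 81.2 against 211, 2.59 times lower (2.00 to 3.42). It was the only member called lower in both libraries. The other named H2b genes, except Hist2h2be and Hist1h2be, behaved at ZT0 like the H2a genes at lower levels. Hist1h2bj had 23.4 against 0.239 CPM there, Hist2h2bb 21.4 against 0.718 and Hist3h2ba 17.7 against 1.80, ratios of 97.6, 29.8 and 9.84. At ZT12 these 3 had 4, 4 and 3 UMIs in the G2/M-list cells, too few to pass the CPM limit. Hist2h2be had 3.85 against 1.32 CPM at ZT0 and was under the limit.

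Several H3 and H4 genes were also higher in G2/M-list cells. Hist1h3c had 26.7 CPM against 0.120 at ZT0, a ratio of 223 that rests on 1 basal-like UMI (39.5 to 8838), and 9.64 against no UMI at ZT12. Hist1h3e, whose last 300 bases are identical to those of Hist1h3f, had 26.5 against 0.239 CPM at ZT0, and 1 UMI in each group at ZT12. Hist2h3c1 did not share this, with 1.57 against 1.92 CPM at ZT0, and 1.38 against 1.96 at ZT12. Among the H4 genes Hist1h4d had 101 against 6.71 CPM at ZT0, a ratio of 15.1 (11.5 to 20.2), and 30.3 against 5.27 at ZT12, a ratio of 5.74 (3.27 to 9.82). Hist1h4i had 27.2 against 4.79 and 24.8 against 5.64, ratios of 5.68 (4.02 to 8.21) and 4.39 (2.40 to 7.72). Hist1h4h had 18.96 against 2.75 CPM at ZT0 and 3 UMIs in G2/M-list cells at ZT12.

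**Figure D3:**
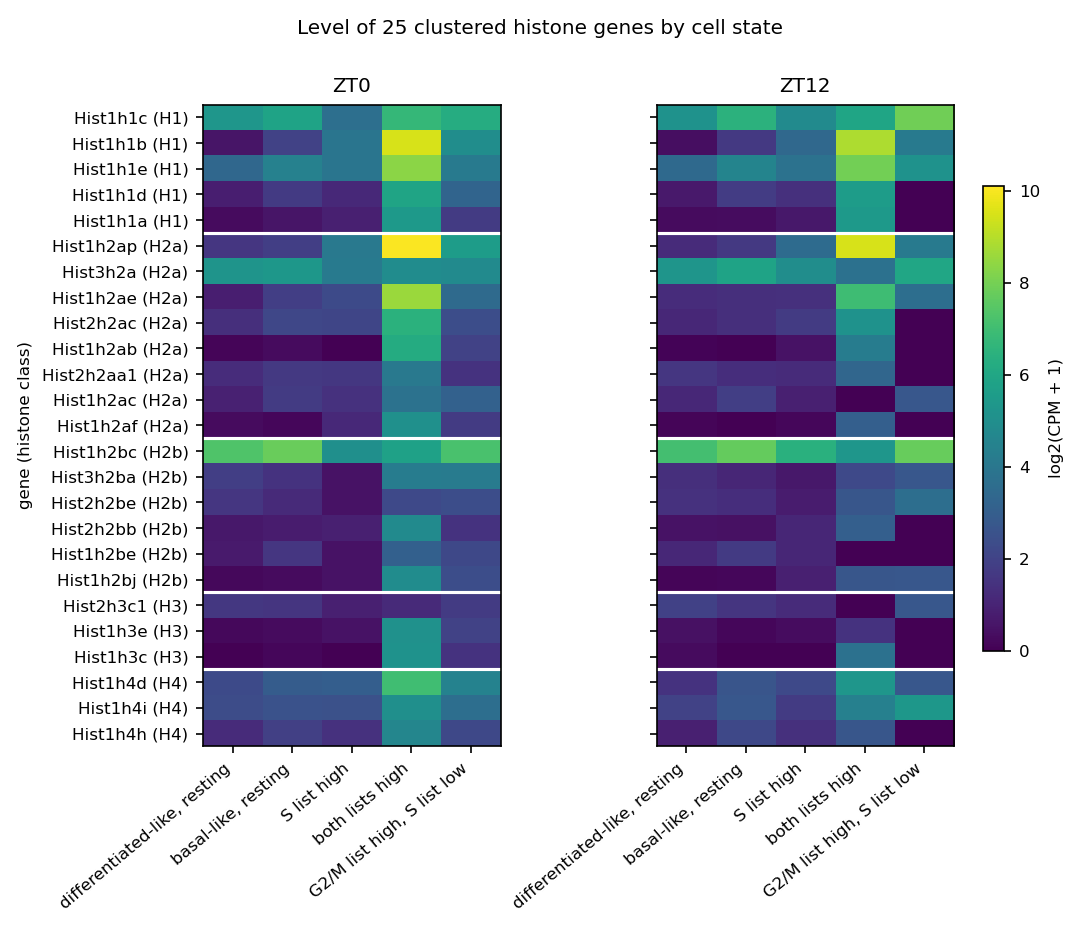
Levels of the 25 named members, as log2 of CPM plus 1, in 5 cell states of the ZT0 and ZT12 libraries. Most members are high in cells past both limits alone, while Hist1h2bc, Hist1h1c and Hist3h2a are present in every state.

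The dual cells were set against the other cycling cells to see on which side the members fell. Over all members the dual cells had 23.7 times the CPM of S-list cells at ZT0 (21.3 to 26.4) and 9.88 times at ZT12 (9.14 to 10.7). Against G2/M-only cells they had 7.19 times at ZT0 (6.7 to 7.73) and 2.78 times at ZT12 (2.31 to 3.36), the latter with 128 UMIs in 9 cells. Summed over all members both groups were thus under the dual cells. G2/M-only cells, at 485 and 729 CPM, were still above basal-like cells, at 393 and 425. By class, dual cells had 9.52 and 2.97 times the G2/M-only level of H1, 6.22 and 2.15 times of H3, and 5.09 and 1.33 times of H4. The ZT12 intervals of H3 (0.749 to 8.46) and H4 (0.680 to 2.85) held 1. H2b was 0.988 (0.868 to 1.13) and 0.354 (0.232 to 0.542) of it. H2a differed most, with 36.8 times the S-list level at ZT0 and 19.9 times at ZT12, and 16.2 and 9.70 times the G2/M-only level. H2b in dual cells was 4.95 times the S-list level at ZT0 and 1.02 times at ZT12 (0.752 to 1.37). Hist1h2ap had 1046 CPM in dual cells, 16 in S-list cells and 47.1 in G2/M-only cells at ZT0, and 711, 10.7 and 17.1 at ZT12. Hist1h2bc had the opposite order between the G2/M-list groups, with 54.5 CPM in dual and 145 in G2/M-only cells at ZT0 and 38.1 and 217 at ZT12.

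**Figure D4:**
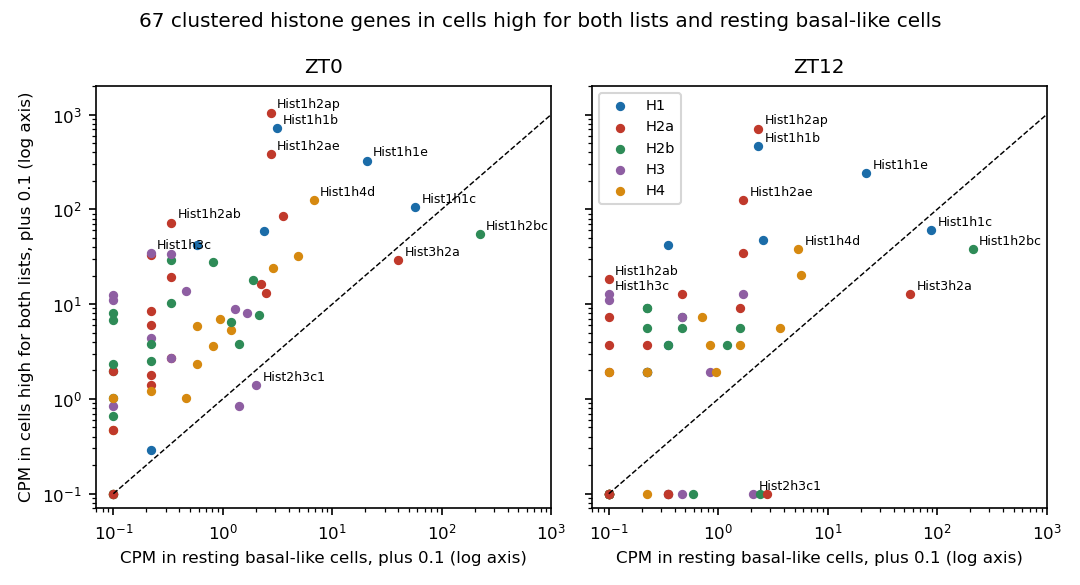
CPM plus 0.1 of the 67 members in resting basal-like cells (horizontal, log scale) and in cells past both limits (vertical, log scale), 1 panel per library. At ZT0 most members lie far above the diagonal, while at ZT12 many have few or no UMIs. Hist1h2bc, Hist3h2a and Hist2h3c1 are among the members below it in both panels.

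Summed over all members, S-list cells had less, not more, than resting basal-like cells. All members together had 147 CPM in S-list cells and 393 in basal-like cells at ZT0, a ratio of 0.375 (0.335 to 0.419), and 205 and 425 at ZT12, a ratio of 0.482 (0.453 to 0.513). Of 7 members tested at ZT0, Hist1h1b and Hist1h2ap were higher, against 4.36% of all genes, and Hist1h2bc, Hist1h1c and Hist3h2a were lower, against 1.7%. Of 6 tested at ZT12 the same 2 were higher (3.39% of all genes), and Hist1h2bc and Hist1h1c were lower (0.438%). The medians of the tested members were -0.53 and -0.85 on the log2 scale, against -0.04 and -0.05 over all genes.

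The lower sum came from the genes that resting cells also express. Hist1h2bc had 32.0 CPM in S-list cells against 221 in basal-like cells at ZT0, 6.92 times lower (5.50 to 8.82), and 83.0 against 211 at ZT12, 2.54 times lower (2.31 to 2.79). Hist1h1c had 11.8 against 57.5 CPM, 4.88 times lower (3.33 to 7.42), and 27.2 against 88.4, 3.25 times lower (2.77 to 3.82). Hist1h1b had 14.3 against 2.99 CPM at ZT0, 4.78 times higher (2.77 to 8.36), and 9.72 against 2.21 at ZT12, 4.40 times higher (2.59 to 7.86). Hist1h2ap was 6.07 times higher (3.5 to 10.8) and 4.84 times higher (2.87 to 8.60). These 2 genes thus had a small excess in S-list cells, far under their level in dual cells. Hist1h1e had 14.3 against 20.6 CPM and 13.2 against 22.4, and Hist1h4d 7.16 against 6.71 and 3.75 against 5.27, none of them called. Where the G2/M limit was set at 120 in place of 80, cells with high counts entered the S-list group, and the log2 ratio of all members turned from -1.42 to 0.53 at ZT0 and moved from -1.05 to -0.70 at ZT12. With an S-list limit of 10 the ZT0 value was -0.81 and a single member was called lower.

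Genes of the machinery that makes and handles histones were examined as 3 lists. These were 18 factors of histone transcription and messenger RNA processing, 14 histone chaperones and 11 replacement variants. Replacement variants are for the most part, but not all, made throughout the cycle from polyadenylated messages. In S-list cells 5 of 17 factors tested at ZT0 and 6 of 17 at ZT12 were higher than in basal-like cells, where 4.36% and 3.39% of all genes tested were. Slbp, the stem-loop binding protein, had 205 CPM in S-list cells against 30.1 in basal-like cells at ZT0, 6.81 times higher (5.83 to 7.96), and 142 against 29.8 at ZT12, 4.76 times higher (4.13 to 5.49). Npat, the activator of histone genes, was 2.17 and 2.26 times higher, its partner Casp8ap2 3.16 and 2.40 times, Cdk2 2.39 times in both libraries, and Eri1, an exonuclease of histone messages, was called at ZT12 with 2.06 times. Ccne1, cyclin E, was 21.6 times higher at ZT0 (13.3 to 37.2) and 2.50 times at ZT12 (1.73 to 3.67).

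Of the chaperones 5 of 14 were higher in S-list cells in each library, against the same 4.36% and 3.39% of all genes. Asf1b, which hands H3 and H4 to the assembly factor CAF-1, had 37.9 CPM against 0.958 at ZT0 and 28.7 against 0.490 at ZT12. Chaf1a and Chaf1b, subunits of CAF-1, were 7.03 and 11.1 times higher at ZT0 and 9.59 and 13 times at ZT12. Hat1, which acetylates new H4, was 2.87 and 3.44 times higher, and Nasp, a carrier of H3, H4 and H1, 2.46 and 2.66 times.

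In G2/M-list cells 5 of 17 factors and 7 of 14 chaperones were higher at ZT0, and 7 of 17 and 8 of 14 at ZT12, against 8.77% and 9.37% of all genes. Slbp split the G2/M-list cells as Hist1h2ap did, with 189 CPM in dual and 23.6 in G2/M-only cells at ZT0, and 332 and 5.70 at ZT12, the last from 1 UMI. Asf1b was 124 times higher than in basal-like cells at ZT0 (62.5 to 287) and 236 times at ZT12 (88.7 to 885). Ipo4, an importer of histones into the nucleus, was the only gene of the 3 lists called lower in G2/M-list cells, at ZT0, where it was 2.03 times lower (1.58 to 2.63). Of 11 replacement variants 6 were higher at ZT0 and 5 at ZT12, against the same shares of all genes. H2afz had 2929 CPM against 407 at ZT0 and 2869 against 442 at ZT12, 7.2 and 6.50 times higher. H2afx was 22.5 and 17.5 times higher, H1fx 8.65 and 4.22 times, H2afv 5.67 and 4.52 times, and H1f0 2.55 times at ZT0. Cenpa, the H3 variant of centromeres, was 50.03 and 54.1 times higher. Unlike Slbp, Cenpa was higher in G2/M-only cells, with 704 CPM at ZT0 and 758 at ZT12, than in dual cells, with 331 and 240. In S-list cells, where 4.36% and 3.39% of all genes were higher, H2afx was the only variant called, 2.22 times higher at ZT0 and 2.34 times at ZT12.

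Resting cells kept a narrower set of members. In basal-like cells Hist1h2bc, Hist1h1c, Hist3h2a and Hist1h1e stood at 221, 57.5, 39.99 and 20.6 CPM at ZT0, and at 211, 88.4, 56.7 and 22.4 at ZT12. In differentiated-like cells they stood at 159, 38.6, 36.9 and 9.38 at ZT0, and at 133, 34.7, 37.4 and 9.82 at ZT12. No other named member passed 7 CPM in a resting group, Hist1h4d in basal-like cells at ZT0 being nearest with 6.71. At least 1 H2b UMI was found in 73.5% of basal-like and 71.3% of differentiated-like cells at ZT0, reduced to 10000 UMIs, and in 84.6% and 96.7% of them unreduced. At least 1 H2a UMI was found in 43.5% and 34.5%, unreduced 62.7% and 73.7%.

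Between the resting groups few members differed by the rule. Of 5 members tested at ZT0 none was higher in differentiated-like cells, against 7.49% of all genes, and Hist1h1e was lower by 2.20 times (1.76 to 2.73), against 15.4%. Of 4 tested at ZT12 none was higher (7.8% of all genes), while Hist1h1e, by 2.28 times (1.88 to 2.77), and Hist1h1c, by 2.55 times (2.31 to 2.81), were lower (15.6%). TMM scaling, which scales by a trimmed mean of gene ratios, moved all genes up by 0.385 on the log2 scale in this comparison at ZT0 and by 0.384 at ZT12. All 3 calls were lost with it, Hist1h1e being 1.68 and 1.75 times lower and Hist1h1c 1.95 times. They were lost as well where resting cells were placed by their own marker UMIs and not by cluster. Hist1h2bc was 0.719 (0.678 to 0.763) and 0.631 (0.596 to 0.669) of its basal-like level, and was not called. Within the same named type it varied more than that. Resting cells of basal cluster 4 had 340 CPM at ZT0 and 325 at ZT12, against 218 and 167 in basal cluster 5. Resting cells of differentiated cluster 7 had 388 and 317, against 107 and 93.9 in differentiated cluster 2. The clusters were made from these same cells, though without the members, so these values are a description. Of the replacement variants, the ZT0 library had 4 of 11 tested lower in differentiated-like cells and the ZT12 library 3 of 10, against 15.4% and 15.6% of all genes, with H1fx 3.78 and 5.05 times lower and H2afv 2.73 and 3.38 times lower. H2afj, named after its value was seen, was the only variant called higher, with 538 CPM against 171 at ZT0 and 533 against 167 at ZT12.

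Between the times, the libraries differed in how many G2/M-list cells they held and, with that, in their members. These cells were 11% of the ZT0 library and 1.11% of the ZT12 library, and gave 60.3% and 6.29% of the member UMIs. All members together had 655 CPM over all ZT0 cells and 295 over all ZT12 cells, a ratio of 0.450 (0.442 to 0.458). H2a was 3.85 times lower at ZT12, H4 3.07 times, H3 2.99 times and H1 2.74 times, while H2b was 1.20 times lower (1.16 to 1.23). Of 10 members tested none was higher at ZT12, against 0.335% of all genes, and 6 were lower, against 2.69%. Hist1h2ae was 16 times lower (43.0 CPM at ZT0, 2.68 at ZT12), Hist1h1b 14.2 times (80.2 and 5.64), Hist1h2ap 13.8 times (118 and 8.57), Hist2h2ac 6.65 times (11.5 and 1.73), Hist1h4d 6.52 times (18.7 and 2.86) and Hist1h1e 3.11 times (47.3 and 15.2). The genes of resting cells hardly moved, with Hist1h2bc at 152 and 139 CPM, Hist1h1c at 52.5 and 47.1 and Hist3h2a at 35.3 and 42.9. With each state given the same weight in both libraries, the log2 ratio of all members went from -1.15 to -0.22, 2 members were called lower in place of 6, and Hist1h1c turned to 0.20, above 0. Of the 6, Hist1h2ae (-1.34) and Hist1h4d (-1.24) were then still called, with Hist1h1b at -0.62, Hist1h2ap at -0.56 and Hist1h1e at -0.15. Hist2h2ac had -1.08 but a mean of 4.33 CPM, under the limit of 5.

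Within G2/M-list cells the members were also lower at ZT12, on 29 cells. All members had 2780 CPM at ZT0 and 1712 at ZT12, a ratio of 0.616 (0.581 to 0.652). Of 32 members tested 13 were lower, against 3.35% of all genes, and none was higher, against 2.81%. Here too a member could pass the CPM limit through its ZT0 level alone. The 13 were 5 H2a, 3 H2b, 3 H3 and 2 H4 genes and no H1 gene. Hist1h2ae had 293 CPM at ZT0 and 97.7 at ZT12, 3 times lower (2.36 to 3.85). Hist1h4d had 101 and 30.3, 3.35 times lower (2.19 to 5.37), and Hist1h2ab 56.0 and 13.8, 4.07 times lower (2.19 to 8.55). The linker genes differed less, Hist1h1b being 1.54 times lower (1.36 to 1.75) and Hist1h1e 1.32 times lower (1.11 to 1.58), with Hist1h1a at 32.6 and 31.7 CPM. Hist1h2ap was 1.49 times lower (1.35 to 1.66).

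The G2/M-list cells of the libraries were not alike in other measures. Median depth was 39502.5 UMIs at ZT0 and 25589 at ZT12, the median G2/M-list count was 194 and 127 of 10000 UMIs, and the median S-list count was 32 and 37. Dual cells alone gave a log2 ratio of -0.78 between the times, G2/M-only cells 0.59, in the opposite direction and with no member called lower, and the whole group -0.70. Limits of 40 and 120 gave -1.50 with 22 members lower and -0.61 with 8. In cells with at least 30 S-list UMIs and 120 to 159 G2/M-list UMIs the median was 38 member UMIs at ZT0 and 23.5 at ZT12, from 25 and 6 cells. What part of the difference comes from cell stage or depth was not tested, and time and library cannot be told apart.

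In S-list cells the sum of all members differed the other way, 1.39 times higher at ZT12 (1.24 to 1.57), but not every class or gene did. The H2b sum was 2.39 times higher (1.91 to 3.02), while the intervals of H1, H2a, H3 and H4 all held 1. Hist1h1b and Hist1h2ap stood at 0.679 (0.445 to 1.06) and 0.668 (0.448 to 1.01) of their ZT0 level and were not called. Hist1h2bc had 32.0 CPM at ZT0 and 83.0 at ZT12, 2.60 times higher at ZT12 (2.04 to 3.34), and Hist1h1c 11.8 and 27.2, 2.31 times higher (1.55 to 3.56). These were the 2 of 7 members tested that were called higher, against 1.43% of all genes, and none was lower, against 2.19%. With an S-list limit of 10 neither was called, and with a G2/M limit of 120 only 1 member was. Both are genes of resting cells, and the S-list count of these cells was close in the libraries, with medians of 24 and 28. The S-list cells, 86 at ZT0 and 319 at ZT12, came from partly different clusters. Cluster 10 held 23 of them at ZT0 and none at ZT12, and cluster 3 held 3 and 120. Other clusters held cells of both libraries, with 10 and 58 in cluster 4, 24 and 63 in cluster 5 and 11 and 48 in cluster 17. The part of this in the difference was not tested. Ccne1 was 3.73 times lower at ZT12 in S-list cells (2.82 to 4.95) and 2.76 times higher in G2/M-list cells (1.91 to 3.91), where Casp8ap2 was 2.17 times higher (1.60 to 2.90).

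In resting cells no member was called between the times. In basal-like cells 6 members were tested, where 0.599% of all genes were higher and 1.22% lower at ZT12. In differentiated-like cells 4 were tested, where 0.362% were higher and 1.11% lower. Hist1h1c in basal-like cells came nearest, with 57.5 CPM at ZT0 and 88.4 at ZT12, 1.54 times higher (1.37 to 1.73). Hist1h2bc differed little, at 0.952 of its ZT0 level in basal-like cells (0.891 to 1.02) and 0.836 in differentiated-like cells (0.795 to 0.878). The basal-like cells came from partly different clusters at the 2 times, cluster 3 almost wholly from ZT12 and cluster 10 from ZT0.

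**Figure D5:**
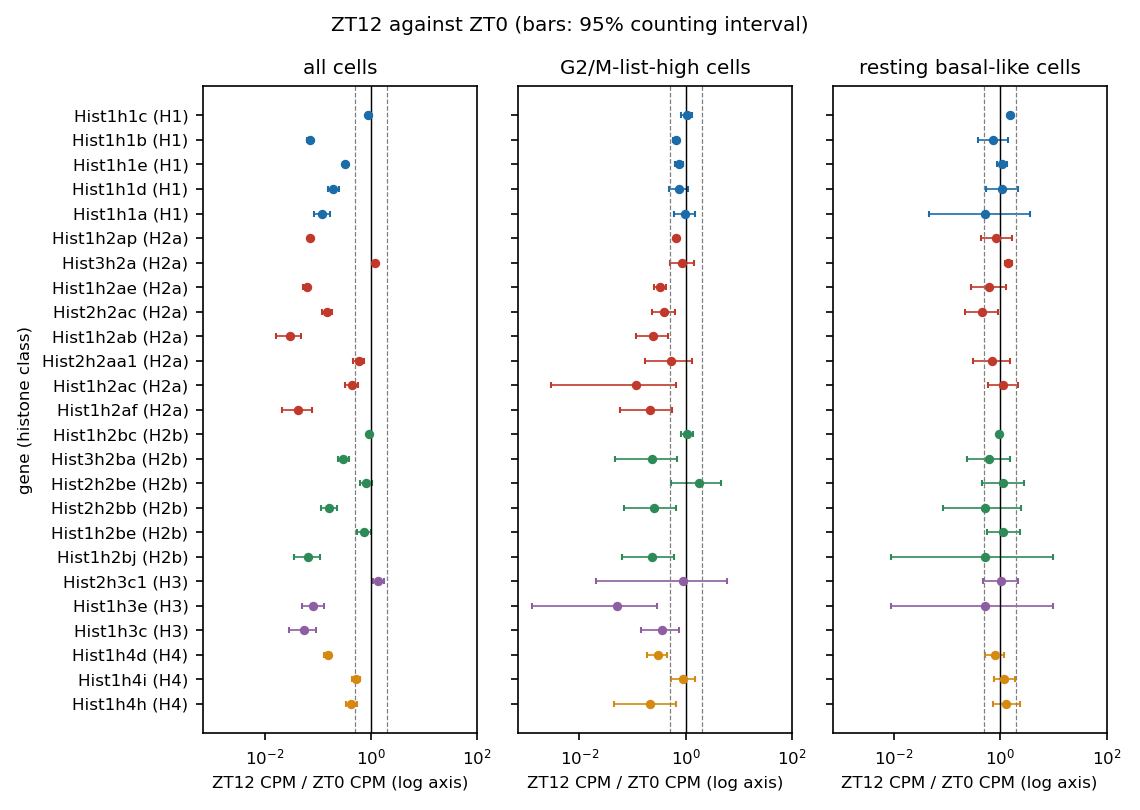
Ratio of ZT12 to ZT0 CPM (log axis) for the named members in all cells, in G2/M-list cells and in resting basal-like cells, with 95% intervals from counting error and dashed lines at 2-fold. Genes with no UMI in a library are not drawn. In all cells most members lie far under 1, in G2/M-list cells nearer to it, and in resting basal-like cells around 1.

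The promoters of the members were read because most of these genes moved together in dual cells. RefSeq promoters of GRCm38.p6, 250 bases before to 50 after the start, were matched to 62 of the 67 members, and 4 motifs were searched on both strands. In the 120 bases before the start shown here, capitals mark CCAAT (or ATTGG, its other strand), TATAAA and AAACACA.
Hist1h1b, chr13:21780626-21780745, minus strand: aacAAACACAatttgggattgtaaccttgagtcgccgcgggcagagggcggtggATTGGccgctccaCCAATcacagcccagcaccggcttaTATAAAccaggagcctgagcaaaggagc
Hist1h1e, chr13:23622559-23622678, minus strand: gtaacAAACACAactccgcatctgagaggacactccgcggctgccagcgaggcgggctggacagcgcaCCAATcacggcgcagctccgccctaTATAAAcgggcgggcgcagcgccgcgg
Hist1h4i, chr13:22041363-22041482, minus strand: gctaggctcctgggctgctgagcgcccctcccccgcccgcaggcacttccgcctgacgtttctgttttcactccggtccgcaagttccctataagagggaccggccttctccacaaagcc
The 2 linker genes hold all 3 motifs in the same order, and the 120 bases of the H4 gene hold none of them, though TATAAA lies elsewhere in its searched window. CCAAT was found in 85.5% of the 62 promoters and in 37.4% of all 32851 promoters. It was in all 6 H1, 18 H2a, 16 H2b and 10 H3 promoters and in 3 of 12 H4 promoters. TATAAA was in 56.5%, against 13.6% of all promoters, and in 8 of 12 H4 promoters (66.7%). AAACACA was in 5 of 6 H1 promoters and in 14.5% of all 62, against 7.18%. ATTTGCAT, known as the octamer of H2b promoters, was in 21.0%, against 1.74%, in 7 H2a and 6 H2b promoters and in no other class. The windows are not independent, since 12 pairs of an H2a and an H2b gene start 176 to 306 bases apart on opposite strands. Hist1h2ac and Hist1h2bc form such a pair, 251 bases apart, and differed in these cells, the former being 4.94 times higher in ZT0 G2/M-list than basal-like cells and the latter 2.92 times lower. Hist1h2ae starts 176 bases from Hist1h2bg, and both had more CPM in ZT0 G2/M-list than basal-like cells. Hist1h2ae was 111 times higher. Hist1h2bg, which shares its stem-loop window with Hist1h2bf, was 16.7 times higher (2.54 to 705) on 14 against 1 UMI, under the CPM limit. A motif match describes the letters of the window and nothing more.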

How the data were processed

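The deposited values were UMI counts per gene and cell, used as the authors deposited them. Cell Ranger 2.1.1 and mm10 are named in the submitters' processing notes, while per the file headers Cell Ranger 4.0.0 wrote the tables. No source used here names the annotation, and gene models came from GENCODE M21. Barcodes with under 500 genes or 10% or more mitochondrial UMIs were removed (129 at ZT0, 191 at ZT12). Scrublet in scanpy 1.11.5 called 2 and 7 doublets, 0.125% and 0.266%, too few to have worked, so doublets were in effect kept. The members and mitochondrial, ribosomal, sex-linked and clock genes were left out of the clustering. Clusters came from 2000 variable genes, 30 components, 15 neighbours and Leiden resolution 1 (leidenalg 0.10.2), and were named from marker lists. A cluster with a marker score under 0.25 (a limit set after the clusters were seen), or led by genes of another class, stayed unnamed.

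UMIs were summed over the cells of a state and given as CPM with exact Poisson 95% intervals, ratios with exact conditional binomial ones (scipy 1.17.1). There was 1 library per time, so no test and no p-value is given. Named were the 25 members with the most UMIs, which include the top 3 of each class, and of each further list up to 6 genes of mean CPM 5 or more with the largest ratio in cycling against basal-like cells, plus those called between times within a state. In 3′ counting a transcript gives a UMI whatever its length. The members, lists, limits and rules were chosen with earlier results of these data known.

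The call rule was tested on simulated data with 200 of 32285 genes changed. The counts were drawn with counting error alone, the model behind the intervals. They held no spread between cells or libraries, so the outcome says nothing about false calls from such spread. For all cells at ZT12 against ZT0 it called 70 of 70 genes changed 6-fold, 69 of 69 changed 3-fold and 0 of 9303 unchanged ones; for G2/M-list against basal-like cells at ZT12 it called 71 of 73, 58 of 65 and 116 of 9345. Alternatives were other cell filters, state limits, clusterings, marker-based states, TMM (edgeR 4.0.16), means over cells, CPM limits, a pseudocount, equal state weights, and leaving out close copies or cells of high doublet score. Added after the data were seen were the split of the G2/M-list cells, bins of both lists and leaving out immune-like and simple epithelial-like clusters.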

Additional observations from a re-analysis of the deposited data

How the results depend on the processing

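Values are log2 ratios of all members unless said otherwise: of G2/M-list or S-list cells against basal-like cells, or of ZT12 against ZT0 (between times). No paired analysis was possible because there was 1 library per time. Of 259 alternative values of the 17 main results, 197 stayed within counting error or 1.5 times a count, 60 moved and 2 reversed; of 1057 for classes and genes 936, 118 and 3 did. Dual cells alone, set against basal-like cells, gave 3.15 at ZT0 and 2.25 at ZT12, -0.78 between times and 83.3% of ZT0 cells with 10 member UMIs (67.6% for all G2/M-list cells, 58.6% at ZT12). G2/M-only cells gave 0.30 and 0.78, 8 and 6 members higher, 0.59 between times (reversed) with 0 members lower, and 10.5% and 22.2% of cells. An S-list limit of 10 gave 2.74 for G2/M-list cells at ZT0, -0.81 (1 member lower) and -0.91 for S-list cells at ZT0 and ZT12, and 0 members higher at ZT12 in S-list cells. A limit of 30 gave 2.96 and 2.21 for G2/M-list cells at ZT0 and ZT12, -0.98 for S-list cells at ZT0 and 1 member lower in differentiated-like than basal-like cells at ZT12. A G2/M limit of 40 gave 1.18 for G2/M-list cells at ZT12, -1.66 for S-list cells at ZT0, -1.50 between times in G2/M-list cells with 22 members lower, and 34.6% of ZT12 cells. A limit of 120 gave 0.53 for S-list cells at ZT0 (reversed), -0.70 for them at ZT12, -0.61 between times in G2/M-list cells with 8 lower, 1 member higher at ZT12 in S-list cells, and reversed H1 at ZT0 (1.19) and H2a at ZT12 (0.22) in S-list cells. TMM gave 2.88 for G2/M-list cells at ZT0, -1.08 between times in all cells and 0 members lower in differentiated-like cells at ZT0 and at ZT12; leaving out close copies gave -1.12 between times in all cells. The stricter cell filter gave 2.72 for G2/M-list and -1.62 for S-list cells at ZT0, and leaving out high doublet scores 2.89 for G2/M-list cells at ZT0. Resolution 0.6 gave 2.11 for G2/M-list and -0.95 for S-list cells at ZT12. Marker-based states gave 2.12 and -0.94 for the same, and 0 members lower in differentiated-like cells at ZT0 and at ZT12. Means over cells gave 1.83 for G2/M-list cells at ZT12, and between times -0.95 in all cells and -0.93 in G2/M-list cells. Equal state weights gave -0.22 between times in all cells, 2 members lower and Hist1h1c at 0.20 (reversed). Without a CPM limit 51 and 27 members were higher in G2/M-list cells, 5 lower in S-list cells at ZT12, 10 and 10 lower in differentiated-like cells, and 41 lower at ZT12 in all cells. A limit of 20 CPM left 8 and 4 higher in G2/M-list cells, 4 lower at ZT12 than at ZT0 in G2/M-list cells, 1 higher at ZT12 in S-list cells, and 0 and 1 lower in differentiated-like cells. The cause of a changed value was not tested, beyond what fewer genes or other cells bring by construction. Depth limits the ZT12 G2/M-list cells most: 29 cells with 726444 UMIs, where 3 counts are 4.13 CPM.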

Other observations

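A small group of cells with few S-list and intermediate G2/M-list UMIs had many captured histone molecules of a different make-up. They had fewer than 15 S-list UMIs and 40 to 79 G2/M-list UMIs, 5 cells at ZT0 and 19 at ZT12, a range chosen after the values were seen. Of them 1 cell at ZT0 and 8 at ZT12 are also among the resting basal-like cells, and 2 at ZT12 among the differentiated-like cells. Their median was 20 member UMIs per 10000 at ZT0 (range 3 to 68) and 9 at ZT12 (range 1 to 17). At least 10 were found in 4 of the 5 cells and 9 of the 19. The CPM values below pool these cells, so a single cell can weigh heavily at ZT0, and the intervals leave out the spread between cells. Hist1h2bc stood at 1032 CPM (862 to 1227) and 282 (236 to 334), and Hist1h1c, a linker histone gene, at 808 (658 to 982) and 269 (224 to 320). Hist1h2ap, the leading gene of dual cells, stood at 8.00 and 14.95 CPM there, and Hist1h1b at 0 and 4.27. None of the 5 ZT0 cells and 2 of the 19 ZT12 cells were among those with high doublet scores. The groups are small, and each is 1 library.

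Hist1h2bc was also high in a cluster of filiform-like cells, keratinocytes with markers of the filiform papillae. Resting cells of cluster 15 had 309 CPM at ZT0 (279 to 343) and 225 at ZT12 (200 to 253), against 98.7 and 98.8 in the other filiform-like cluster, cluster 6. Hist1h1c followed, with 84.1 and 88.3 CPM in cluster 15 against 21.4 and 27.5 in cluster 6, while Hist3h2a did not, with 32.8 and 36.5 against 33.9 and 31.2.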
